A study of Mus musculus with 12 samples.

Results

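The genes of prostaglandin synthesis described here are 7 genes of the mouse heart: Pla2g4a, Ptgs1, Ptgs2, Ptges, Ptgis, Ptgds and Hpgd. They were taken by name from the 33615 gene symbols of the table, where they hold 26 of the 104952 transcript rows, and their values were summed per gene. All 7 were present and all 7 passed the filter on low counts. Bulk RNA sequencing of frozen mouse heart gave 12 libraries, 4 in each of 3 groups. Sham hearts were sham-operated and labelled with a time of 2 h. I/R hearts were reperfused for 2 h after ischemia of 30 min. The treated hearts, labelled I/R + ML264, had the same injury and ML264, a small molecule used to inhibit the transcription factor KLF5. The labels used here name no strain, genotype, age, sex, or dose of ML264, and do not say that each library is a separate animal, so the p-values speak only of spread among libraries, which may in part be technical.

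Prostaglandins are short-lived lipid signals made from arachidonic acid. The fatty acid is released from membranes by phospholipase A2 (cytosolic form, Pla2g4a) and turned into prostaglandin H2 by the cyclooxygenases COX-1 (Ptgs1, present in many resting cells and in platelets) and COX-2 (Ptgs2, an early response gene). Terminal synthases then make the single products: prostaglandin E2 (microsomal synthase, Ptges), prostacyclin (Ptgis), which widens vessels and restrains platelets, and prostaglandin D2 (lipocalin-type synthase, Ptgds). Hpgd encodes 15-hydroxyprostaglandin dehydrogenase, the enzyme that begins the inactivation of prostaglandins. In the heart, COX-2 and prostacyclin are known for their part in the response to ischemia.

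The start regions of both cyclooxygenase genes are shown because the 2 enzymes catalyse the same step and, in injured hearts, RNA of COX-2 was called and that of COX-1 was not, and that of Hpgd because it is the other member that was called. Each runs from 250 bases before to 30 bases after the start of the gene in RefSeq (GRCm38.p6), 280 bases in all, and position +1 is the start. Capitals mark matches, on either strand, to ACGTCA (a core of the cAMP response element), CACGTG (the E-box), TTGCGCAA (a palindrome of the C/EBP type) or TGANTCA (the AP-1 type).
Ptgs2 (chr1:150099781-150100060, plus strand): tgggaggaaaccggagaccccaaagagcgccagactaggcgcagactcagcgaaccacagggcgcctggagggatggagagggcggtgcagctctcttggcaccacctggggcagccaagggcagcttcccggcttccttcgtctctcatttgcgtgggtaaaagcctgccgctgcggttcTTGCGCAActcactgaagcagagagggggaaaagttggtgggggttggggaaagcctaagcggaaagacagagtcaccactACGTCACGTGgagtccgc
Ptgs1 (chr2:36230176-36230455, plus strand): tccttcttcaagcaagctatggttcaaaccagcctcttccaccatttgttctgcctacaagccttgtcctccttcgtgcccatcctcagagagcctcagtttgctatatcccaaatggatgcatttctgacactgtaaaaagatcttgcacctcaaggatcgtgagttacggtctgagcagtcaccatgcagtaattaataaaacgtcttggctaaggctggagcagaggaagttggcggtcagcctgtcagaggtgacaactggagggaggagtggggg
Hpgd (chr8:56294302-56294581, plus strand): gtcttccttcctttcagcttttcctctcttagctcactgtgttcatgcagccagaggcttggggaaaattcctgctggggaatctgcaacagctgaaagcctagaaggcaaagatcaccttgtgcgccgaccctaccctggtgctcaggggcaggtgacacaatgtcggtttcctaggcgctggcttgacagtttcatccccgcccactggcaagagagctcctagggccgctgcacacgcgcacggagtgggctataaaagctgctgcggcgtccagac
The Ptgs2 region held TTGCGCAA at -69, ACGTCA at +13 and CACGTG at +17, the latter pair sharing bases. Of 32851 mouse start regions of the same length, 0.2% held TTGCGCAA, 7.3% ACGTCA, 6.8% CACGTG and 7.5% TGANTCA. The Ptgs1 and Hpgd regions held none of the 4 in this window. Ptgds, also on the list of 6 members with a RefSeq start region, held 1 TGANTCA match at -35, while Pla2g4a and Ptges held none of the 4. The short motifs GGGCGG and CACCC are of the kind bound by Sp and KLF proteins. GGGCGG stood in the regions of Ptgs2, Ptges and Hpgd (34.7% of all regions) and CACCC in those of Ptges, Ptgds and the first of 2 regions of Pla2g4a (55.4% of all regions). These matches describe letters in the sequence only, at positions counted from the RefSeq start. The GENCODE annotation starts Hpgd at 56294585, past the end of its region shown here at 56294581. Positions thus depend on the start that is used.

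On the GRCm38 annotation, Ptgs2 spans chromosome 1 from 150100031 to 150108227 on the plus strand. Pla2g4a, from 149829618 to 149961290 on the minus strand, starts 138740 bases away from it, so the 2 genes are transcribed away from each other. On chromosome 2 lie Ptgds (25466709 to 25470046, minus strand), Ptges (30889471 to 30929863, minus), Ptgs1 (36230426 to 36252272, plus) and Ptgis (167191805 to 167240604, minus), and on chromosome 8 Hpgd (56294585 to 56321043, plus). Of the 31-base words (stretches of sequence) of each member, the share also found in transcripts of other genes was 0.0% for Ptgs2, Ptgds and Hpgd and at most 5.0% (Ptgis, with 1110018N20Rik on the opposite strand). Ptgs1 shares 3.3% with Gm43621, also on the opposite strand, and the library kit does not mark strand.

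Library depth was 22.26 to 29.93 M (mega) estimated counts. Levels are given as CPM, counts per M counts after scaling by TMM factors, which correct for composition. Klf5 itself had 2 to 15 counts per library. Sums of 12 cardiomyocyte markers were 88612 to 107180 CPM over the libraries and among atrial markers Sln had no count. The Y-linked genes Ddx3y and Eif2s3y summed to 62.2 to 73.0 CPM in part of the libraries. These were the 4 Sham libraries, I/R libraries 2 and 3 and I/R + ML264 libraries 3 and 4. The other 4 libraries had at most 1.03 CPM. Sex, as read from these transcripts, is thus not balanced over the groups and is partly confounded with injury. It also follows that the I/R and the treated libraries each come from more than 1 animal. The clock gene Arntl reached 3.38 to 3.94 on the log2 CPM scale in 3 libraries (Sham 2, Sham 3, I/R 1) and no more than 1.72 elsewhere. I/R + ML264 library 2 stood apart from all others on the second dimension of a multidimensional scaling.

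In injured hearts, RNA for the inducible cyclooxygenase rose and RNA for the inactivating dehydrogenase fell. These were the only members called in I/R against Sham, Ptgs2 higher and Hpgd lower, where a call is an edgeR adjusted p under 0.05. Calls were made for 7.74% of all 15952 genes tested in this comparison (4.58% higher, 3.17% lower). With upper-quartile factors 620 genes were higher and 676 lower, against 730 and 505. Ptgs2 was the 1 member whose groups did not overlap, as in 15.8% of all genes tested (8.54% higher). DESeq2 called the same 2 members, and 9.33% of the genes to which it gave an adjusted p. The other 5 members, among them the constitutive cyclooxygenase and all 3 terminal synthases, were not called. The median log2 fold change of the 7 was 0.28 against 0.00 over all genes.

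Ptgs2 RNA was at 5.97, 0.0724, 1.53 and 1.97 CPM in Sham libraries 1 to 4. In I/R libraries 1 to 4 it was at 8.50, 38.2, 31.2 and 30.6 CPM. Treated libraries 1 to 4 had it at 14.6, 33.3, 14.6 and 18.4 CPM. No injured library came down to the highest Sham library, but within groups the spread was wide: Sham library 2 had 2 counts and Sham library 1 had 132, and I/R library 1 lay far below the other I/R libraries. The mean was 2.39 ± 2.52 CPM for Sham, 27.1 ± 12.9 for I/R and 20.2 ± 8.91 for treated hearts (SD, n = 4). The log2 fold change of I/R against Sham was 3.55 ± 0.81 (SE, adjusted p = 0.0310), a fitted fold of 11.7 with a 95% interval on the log2 scale of 1.96 to 5.15. Without Sham library 1 the log2 fold change was 4.49 (adjusted p = 0.0201), without Sham library 2 it was 3.13 (0.0450), and voom gave 4.53 (0.0445), so the size of the rise is loosely set. DESeq2 gave 3.50 (adjusted p = 0.00168). The edgeR call was lost with only the 2 groups compared (3.55, adjusted p = 0.0705) and with the Y-linked level as a covariate (3.61, adjusted p = 0.0736). When any 1 of Sham libraries 3 and 4 and I/R libraries 2, 3 and 4 was left out, the call was lost too, with log2 fold changes of 3.34 to 3.49 there and an adjusted p of at most 0.0933.

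Hpgd RNA was at 1.81, 3.08, 4.20 and 3.56 CPM in Sham libraries 1 to 4 and at 1.28, 2.12, 1.85 and 1.42 CPM in I/R libraries 1 to 4. Treated hearts had it at 3.05, 1.84, 2.84 and 3.13 CPM. Sham libraries 2, 3 and 4 lay above the I/R range and Sham library 1 inside it, and I/R + ML264 library 2 was the only treated library within the I/R range. The log2 fold change of I/R against Sham was -0.93 ± 0.27 (SE, adjusted p = 0.0413), from 3.16 ± 1.01 to 1.67 ± 0.387 CPM (SD, n = 4). The call ended without any 1 of Sham libraries 2, 3 and 4, I/R libraries 1, 3 and 4 and I/R + ML264 library 4, with an adjusted p of at most 0.136. Whether cells that hold the enzyme were fewer or held less of its RNA cannot be told apart in bulk tissue, and the same holds for every gene here.

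Several measures moved with these calls. The 3 libraries with high Arntl held the 2 lowest Ptgs2 values of Sham and the lowest of I/R. With Arntl as a covariate the log2 fold change was 2.69 for Ptgs2 and -0.92 for Hpgd, and neither was called (adjusted p = 0.0885 and 0.129). Among libraries with high Y-linked transcripts, Ptgs2 was at 0.0724 to 5.97 CPM for Sham, 31.2 to 38.2 for I/R and 14.6 to 18.4 for treated hearts. A fit of these 8 libraries gave a log2 fold change of 3.92 for I/R against Sham (adjusted p = 0.101), and for Hpgd -0.68 (adjusted p = 0.266). The libraries with low Y-linked transcripts include no Sham heart. Markers of neutrophils, which can express COX-2, summed to 5.74 to 8.13 CPM for Sham, 9.92 to 24.9 for I/R and 6.42 to 23.4 for treated hearts, with 4 of the 8 tested called higher in I/R and S100a8 at 0 in all Sham libraries. I/R + ML264 libraries 1 and 3 had neutrophil sums of 6.42 and 7.87 CPM, within the Sham range, and Ptgs2 at 14.6 CPM in each. Treated libraries 2 and 4 each had a sum of 23.4 CPM, with Ptgs2 at 33.3 and 18.4 CPM. The sums of I/R libraries 1 to 4 were 9.92, 12.6, 18.7 and 24.9 CPM. Ptgs2 was at 8.50, 38.2, 31.2 and 30.6 CPM in the same order. The part of neutrophils in the rise of Ptgs2, and that of the Arntl and Y-linked levels beyond these fits, was not tested.

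**Figure D1:**
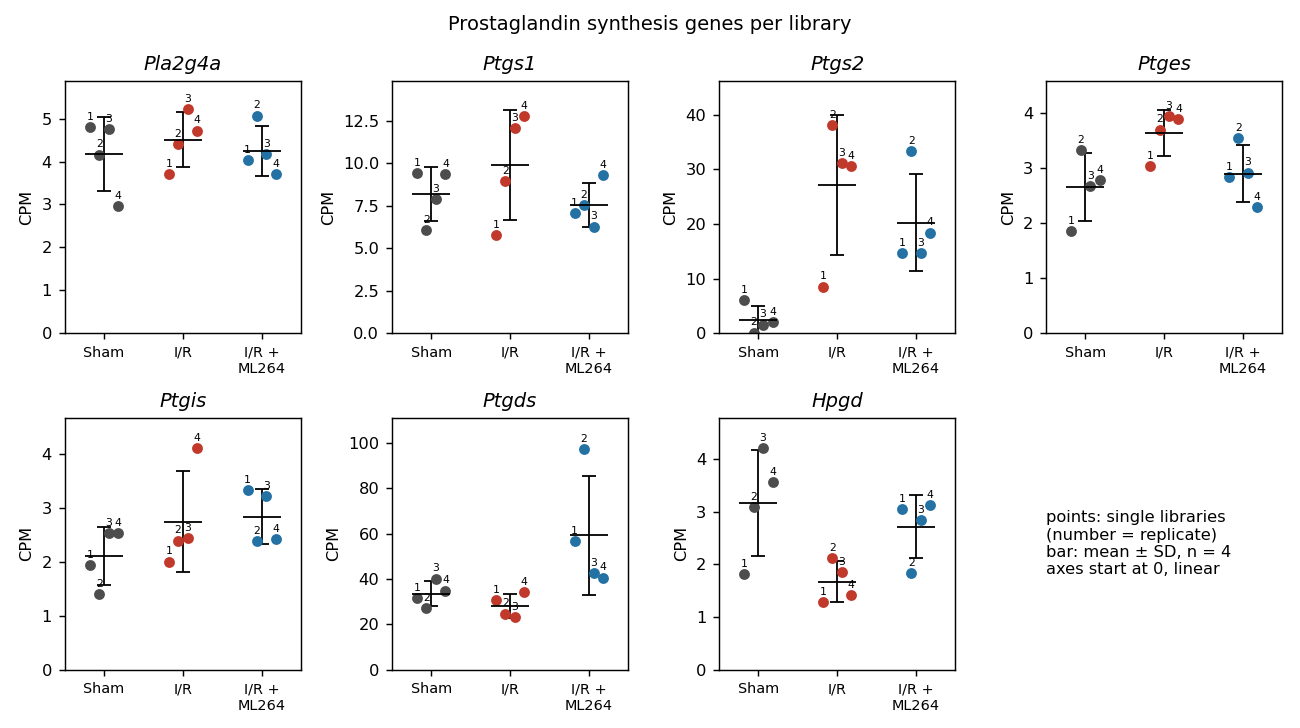
Level of each of the 7 genes in CPM (linear axes from 0) in the 4 libraries of Sham, I/R and I/R + ML264, with the replicate number at each point and the mean ± SD as bars. Ptgs2 lies at 0.0724 to 5.97 CPM in Sham and 8.50 to 38.2 in I/R, Hpgd falls from 3.16 to 1.67 CPM on average, and the I/R + ML264 libraries stand above both other groups in Ptgds.

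Upstream of COX-2 and beside it in the pathway, no member was called in I/R against Sham. Pla2g4a, the phospholipase, was at 2.96 to 4.80 CPM for Sham and 3.70 to 5.23 for I/R (log2 fold change 0.12 ± 0.18, SE, adjusted p = 0.761). The 95% interval of -0.24 to 0.47 excludes a rise of the size of that of Ptgs2. Ptgs1, for COX-1, was at 9.41, 6.05, 7.89 and 9.37 CPM in Sham libraries 1 to 4 and at 5.75, 8.96, 12.1 and 12.8 CPM in I/R libraries 1 to 4. The groups overlapped, with both the lowest and the highest value in I/R (log2 fold change 0.28 ± 0.22, adjusted p = 0.498). The 2 I/R libraries highest in Ptgs1 were library 4, with a sum of 8 platelet markers of 216 CPM, and library 3, with a sum of 20.1 CPM, beside 13.8 to 48.7 CPM in all Sham and I/R libraries other than library 4. The log2 fold change of Ptgs1 was 0.13 without library 4, 0.17 without library 3 and 0.15 without Sham library 2. In each group the library with the highest platelet sum was also the highest in Ptgs1. These were Sham library 1 (38.8 CPM, Ptgs1 at 9.41), I/R library 4, and I/R + ML264 library 4 (155 CPM, Ptgs1 at 9.30). Sham library 4, with a platelet sum of 15.8 CPM, had Ptgs1 at 9.37 CPM. The part of platelets in the Ptgs1 level was not tested.

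Because a long RNA gives more counts than a short one, COX-1 and COX-2 were set side by side per kilobase of the longest annotated transcript. On this scale Ptgs1 was at 2.85 ± 0.554 and Ptgs2 at 0.536 ± 0.567 CPM per kilobase in Sham (SD, n = 4). In I/R the order was the opposite, with Ptgs1 at 3.46 ± 1.14 and Ptgs2 at 6.09 ± 2.89, and in treated hearts Ptgs1 was at 2.63 ± 0.448 and Ptgs2 at 4.54 ± 2.00. As a share of the summed cyclooxygenase level, Ptgs2 made up 29.0%, 0.765%, 11.1% and 11.9% in Sham libraries 1 to 4. In I/R libraries 1 to 4 its share was 48.8%, 73.3%, 62.3% and 60.6%. Treated libraries 1 to 4 had shares of 57.1%, 74.0%, 59.9% and 56.1%. The shares of every injured library thus lay above those of every Sham library, and the 2 injured groups overlapped, at 61.2% ± 10.0 and 61.8% ± 8.29 (SD, n = 4).

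Among the terminal synthases, Ptges stood at 1.85, 3.33, 2.67 and 2.78 CPM in Sham libraries 1 to 4 and at 3.04, 3.70, 3.94 and 3.89 CPM in I/R libraries 1 to 4. Only Sham library 2 reached into the I/R range, and the log2 fold change of 0.45 ± 0.20 (SE) did not pass adjustment over all genes (adjusted p = 0.194). Treated hearts had it at 2.29 to 3.55 CPM, overlapping both groups. Ptgis, the prostacyclin synthase, was at 1.41 to 2.54 CPM for Sham, 2.01 to 4.12 for I/R and 2.39 to 3.33 for treated hearts (log2 fold change of I/R against Sham 0.38 ± 0.26, adjusted p = 0.405). Its highest I/R value was in library 4, and the other 3 I/R libraries lay at 2.01 to 2.45 CPM. Without library 4 the log2 fold change was 0.11.

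Per kilobase, Ptgds was the most abundant member in every group, at 25.3 ± 4.11 CPM per kilobase for Sham, 21.3 ± 3.97 for I/R and 44.7 ± 19.9 for treated hearts (SD, n = 4). In Sham the other 6 followed in the order Ptgs1 (2.85), Hpgd (1.88), Pla2g4a (1.21), Ptgis (1.00), Ptges (0.730) and Ptgs2 (0.536). In I/R the order after Ptgds was Ptgs2 (6.09), Ptgs1 (3.46), Pla2g4a (1.31), Ptgis (1.30), Ptges (0.999) and Hpgd (0.992). From Pla2g4a downwards, and between Ptgs2 and Ptgs1, neighbours in that order differed by less than the larger of their SDs, as did Pla2g4a and Ptgis, and Ptges and Ptgs2, in Sham. By these means Ptgs2 stood in the last place of 7 in Sham and the second in I/R, and Hpgd in the third and the last. The last place in each group and the second in I/R were within such an SD of a neighbour. The order also rests on the longest annotated transcript as the length of each gene.

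**Figure D2:**
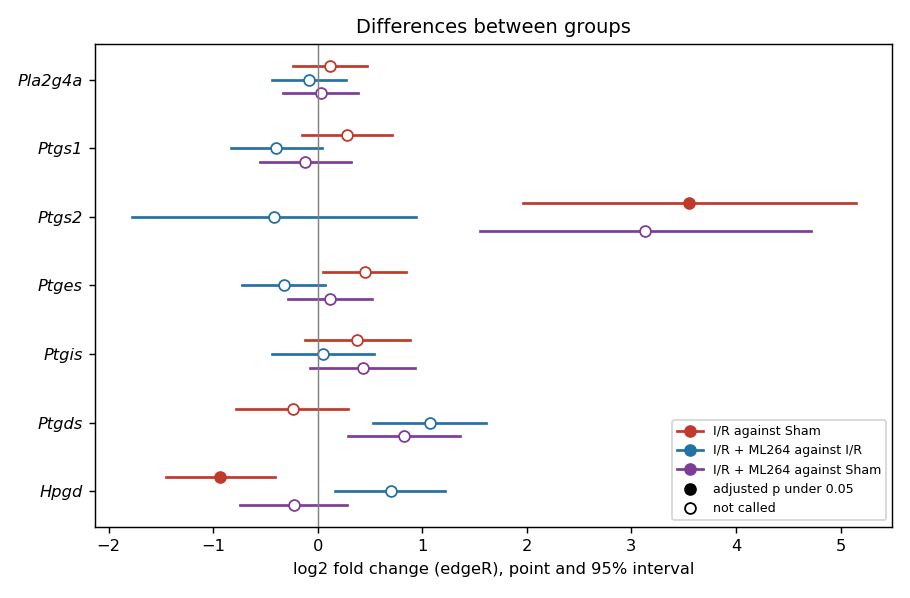
Log2 fold change of each gene in the 3 comparisons (points) with its 95% interval (lines), where filled points have an edgeR adjusted p under 0.05. Only Ptgs2 (3.55) and Hpgd (-0.93) in I/R against Sham are filled, and the interval of Ptgs2 in I/R + ML264 against I/R runs from -1.78 to 0.94.

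In injured hearts given ML264, edgeR called no member against I/R hearts. Of all genes tested it called 0.0502% (8 genes, 0.0125% higher and 0.0376% lower), with 1660 genes at an unadjusted p under 0.05. At an unadjusted p under 0.05 stood 2 of the 7, Ptgds and Hpgd, beside 10.4% of all genes tested. DESeq2 called 1 of the 7, Ptgds, and 0.891% of the genes to which it gave an adjusted p (144 genes). The groups did not overlap for Ptgds alone, against 5.61% of all genes tested (2.53% higher). The 3 comparisons share libraries by pairs, so values from them stand side by side here and do not support one another. The median log2 fold change of the 7 was -0.08 against I/R and 0.12 against Sham, with 0.00 over all genes in both.

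Ptgds, for the synthase of prostaglandin D2, was at 31.7, 27.3, 40.2 and 34.9 CPM in Sham libraries 1 to 4 and at 30.9, 24.8, 23.1 and 34.4 CPM in I/R libraries 1 to 4. Treated libraries 1 to 4 had it at 56.7, 97.4, 42.6 and 40.7 CPM. Each treated library thus lay above all 8 others, the lowest of them by a small margin over Sham library 3. The log2 fold change was 1.07 ± 0.27 (SE) against I/R (unadjusted p = 0.00282, adjusted p = 0.221) and 0.83 ± 0.27 against Sham (adjusted p = 0.229). By DESeq2 it was called in both, with adjusted p = 0.00216 and 0.0260. I/R + ML264 library 2, which stood apart as a whole, was the highest. Without it the difference from I/R was 0.73 with an adjusted p of 0.0784, and that from Sham 0.48 with 0.367.

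Split by level of Y-linked transcripts after the data were seen, I/R and treated hearts had 2 libraries each per level. With high levels the I/R libraries were at 23.1 to 24.8 CPM and the treated libraries at 40.7 to 42.6, and with low levels at 30.9 to 34.4 and 56.7 to 97.4. The log2 fold changes of Ptgds within these subsets were 0.80 and 1.24, and neither was called (adjusted p = 0.163 and 0.673). The subset with low levels includes I/R + ML264 library 2. The part of the Y-linked level in the Ptgds values was not tested. Atrial markers, of which Nppa gave nearly all counts, summed to 22.0 CPM in I/R + ML264 library 2 and 7.34 to 12.7 CPM in the other treated libraries. I/R library 2 had a like sum of 21.3 CPM with Ptgds at 24.8 CPM. Fibroblast markers summed to 535 to 609 CPM in treated hearts and 542 to 624 in I/R, and epicardial and mesothelial markers to 7.52 to 17.5 and 9.23 to 20.7 CPM, so the ranges overlapped for both lists. Hpgds, the other synthase of prostaglandin D2, had a log2 fold change of 0.02 in I/R + ML264 against I/R (edgeR adjusted p = 0.983). Mast cell markers summed to 4.71 to 6.39 CPM in treated hearts and 4.05 to 4.72 in I/R, mostly from Kit, beside 3.44 to 5.74 in Sham. Only 2 of the 7 were tested. In I/R + ML264 against I/R, Kit had a log2 fold change of 0.10 (edgeR adjusted p = 0.898). Mcpt4 was at 2.38 (unadjusted p = 0.00600, adjusted p = 0.279). The median of 1.24 thus lies between a gene with little change and a gene that was not called. Among markers below the filter, counts over 4 libraries were 18 against 2 for Cma1, 21 against 10 for Cpa3 and 2 against 1 for Fcer1a. The others below it, Ms4a2 and Tpsb2, had 14 against 7 and 8 against 1. The part of mast cells or of the other cell types in the Ptgds values was not tested.

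Hpgd in treated hearts was at 2.72 ± 0.597 CPM (SD, n = 4), between the means of I/R and Sham. Its log2 fold change was 0.70 ± 0.27 against I/R (adjusted p = 0.362) and -0.23 ± 0.26 against Sham (adjusted p = 0.760). Ptgs2 did not pass the test against I/R (-0.42 ± 0.70, adjusted p = 0.877), and the 95% interval of -1.78 to 0.94 lies on both sides of no change. Against Sham, Ptgs2 was higher in all 4 treated libraries, with a log2 fold change of 3.13 ± 0.81 that was not called (adjusted p = 0.156) by edgeR and was called by DESeq2 (adjusted p = 0.0277), which called 2 of the 7, Ptgs2 and Ptgds, and 2.07% of its genes (354). In that comparison 0 members and 0.288% of all genes tested were called (0.257% higher, 0.0313% lower, with 2074 genes at an unadjusted p under 0.05). The groups did not overlap for 2 members, Ptgs2 and Ptgds, and for 7.37% of all genes tested (3.99% higher). Ptgs1 was at 7.06, 7.55, 6.27 and 9.30 CPM in treated libraries 1 to 4 (-0.40 ± 0.22 against I/R, adjusted p = 0.561). For Pla2g4a, Ptges and Ptgis the differences from I/R were -0.08 ± 0.18, -0.32 ± 0.20 and 0.05 ± 0.25, with adjusted p = 0.908, 0.607 and 0.962.

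The rest of the pathway was read from 5 lists with 63 genes, of which 46 were tested. In I/R against Sham 4 of the 46 rose and 2 fell, beside the 7.74% called over all genes, and their median log2 fold change was -0.04. In the comparisons with I/R + ML264 none of the 46 was called by edgeR.

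Among 16 tested phospholipases and genes of arachidonate supply 3 rose and 1 fell. Pla2g12a, a secreted phospholipase A2, was at 5.36 to 6.70 CPM for Sham and 8.89 to 13.3 for I/R, with no overlap (0.87 ± 0.18, SE, adjusted p = 0.00788). Pla2g2d, another secreted form, known from resident myeloid cells, fell from 3.73 to 6.81 CPM in Sham to 1.61 to 2.47 in I/R (-1.29 ± 0.23, adjusted p = 0.00445). Acsl4, the ligase that couples arachidonic acid to coenzyme A, rose from 14.3 ± 1.25 to 20.6 ± 2.68 CPM (0.53 ± 0.14, adjusted p = 0.0298), and Mgll, the monoacylglycerol lipase that can free arachidonic acid, from 16.7 ± 1.16 to 21.5 ± 2.56 CPM (SD, n = 4, 0.36 ± 0.10, adjusted p = 0.0417). The calls of Pla2g12a and Pla2g2d held in each of the 12 fits with 1 library removed, while that of Acsl4 ended in 6 and that of Mgll in 7. With the Y-linked level as a covariate the calls of Pla2g12a (0.72, adjusted p = 0.0514), Acsl4 (0.41, 0.139) and Mgll (0.37, 0.0969) were lost, and with Arntl those of Acsl4 (0.46, 0.126) and Mgll (0.39, 0.0785). Mgll was also lost with upper-quartile factors (0.0765), with no filter (0.0598) and with only the 2 groups compared (0.0580), and Acsl4 (0.0717) and Mgll (0.0670) among libraries with high Y-linked transcripts. The macrophage marker Adgre1 also fell in I/R, as 1 of 10 markers of monocytes and macrophages, whose sums were 88.1 to 144 CPM for Sham and 103 to 125 for I/R, and the part of such cells in the fall of Pla2g2d was not tested.

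Of 7 tested genes of the receptor list, 1 rose. Ptger4, the EP4 receptor through which prostaglandin E2 raises cAMP, was at 4.12, 3.62, 2.22 and 2.61 CPM in Sham libraries 1 to 4. In I/R libraries 1 to 4 it was at 5.53, 7.23, 5.15 and 6.18 CPM. Every I/R library was above every Sham library, and the log2 fold change was 0.94 ± 0.21 (SE, adjusted p = 0.0118). The call stayed in all 12 fits without 1 library and ended with Arntl as a covariate (0.86, adjusted p = 0.0537) and among libraries with high Y-linked transcripts (0.99, adjusted p = 0.0675). Ptger4 shares 15.2% of its words with Gm15937 and other transcripts on the opposite strand. Treated hearts had it at 3.58 to 5.78 CPM, with a log2 fold change of -0.28 against I/R (adjusted p = 0.662).

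The other tested genes of this list were not called. Ptgfr, the receptor of prostaglandin F2 alpha, was at 2.27 ± 0.838 CPM for Sham, 3.57 ± 1.21 for I/R and 5.83 ± 3.06 for treated hearts (SD, n = 4), where library 2 reached 10.3 CPM. Ptgdr, the DP1 receptor of prostaglandin D2, was at 3.66 ± 0.779, 4.17 ± 0.964 and 4.36 ± 0.446 CPM in the same order, but 27.2% of its words are shared with Gm16976, so its level is uncertain. The prostacyclin receptor Ptgir was at 0.982 ± 0.319, 0.753 ± 0.249 and 0.800 ± 0.0464 CPM, and the thromboxane receptor Tbxa2r at 0.316 ± 0.153, 0.197 ± 0.197 and 0.198 ± 0.113 CPM. Ptgfrn, a partner protein of the F2 alpha receptor, was at 15.8 ± 2.40, 16.4 ± 1.85 and 15.0 ± 2.00 CPM. Ptger2, Ptger3 and Ptgdr2 fell below the count filter, with at most 7 counts in any library.

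None of the 7 other terminal synthases and none of the 5 tested genes of inactivation and transport was called in any comparison. Tbxas1, the thromboxane synthase, was at 24.1 ± 3.84 CPM for Sham, 27.6 ± 4.14 for I/R and 26.6 ± 4.30 for treated hearts. Ptges2 and Ptges3, the other synthases of prostaglandin E2 (Ptges3 shares 20.9% of its words with other genes and is uncertain), were at 3.80 ± 0.369 and 23.9 ± 2.41 CPM in Sham and 4.17 ± 0.671 and 26.6 ± 2.13 CPM in I/R (SD, n = 4). The hematopoietic prostaglandin D2 synthase Hpgds, whose product is that of Ptgds, was at 4.58 ± 1.17 CPM for Sham, 3.53 ± 1.05 for I/R and 3.58 ± 0.422 for treated hearts, with a log2 fold change of 0.02 in I/R + ML264 against I/R. Akr1b3, a prostaglandin F synthase, was at 44.4 ± 0.652, 38.7 ± 2.34 and 43.1 ± 3.36 CPM. It shares 15.2% of its words with other genes, so its level is uncertain too. Fam213b, another prostaglandin F synthase, was at 4.09 ± 1.08, 4.15 ± 1.64 and 4.16 ± 1.16 CPM, and Cbr1, a carbonyl reductase of prostaglandins, at 1.60 ± 0.462, 1.37 ± 0.0836 and 1.63 ± 0.245 CPM. The transporter Slco2a1, which takes prostaglandins into cells for inactivation by Hpgd, was at 8.72 ± 1.14 CPM for Sham and 8.97 ± 2.03 for I/R (log2 fold change 0.04 ± 0.15, adjusted p = 0.908). Whether it differed from Hpgd in its change was not tested.

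Among 11 tested genes of other arachidonate oxidation, 1 fell. Lta4h, the hydrolase that makes leukotriene B4, was at 7.24 to 8.30 CPM for Sham and 3.90 to 5.23 for I/R (-0.77 ± 0.15, SE, adjusted p = 0.00674), with no overlap, and the call stayed in all 12 fits without 1 library. Treated hearts had it at 4.39 to 6.42 CPM. Alox5, the 5-lipoxygenase upstream of it, was at 4.90 ± 0.754 CPM for Sham and 2.93 ± 0.718 for I/R (SD, n = 4) and was not called (-0.74 ± 0.24, adjusted p = 0.0719).

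**Figure D3:**
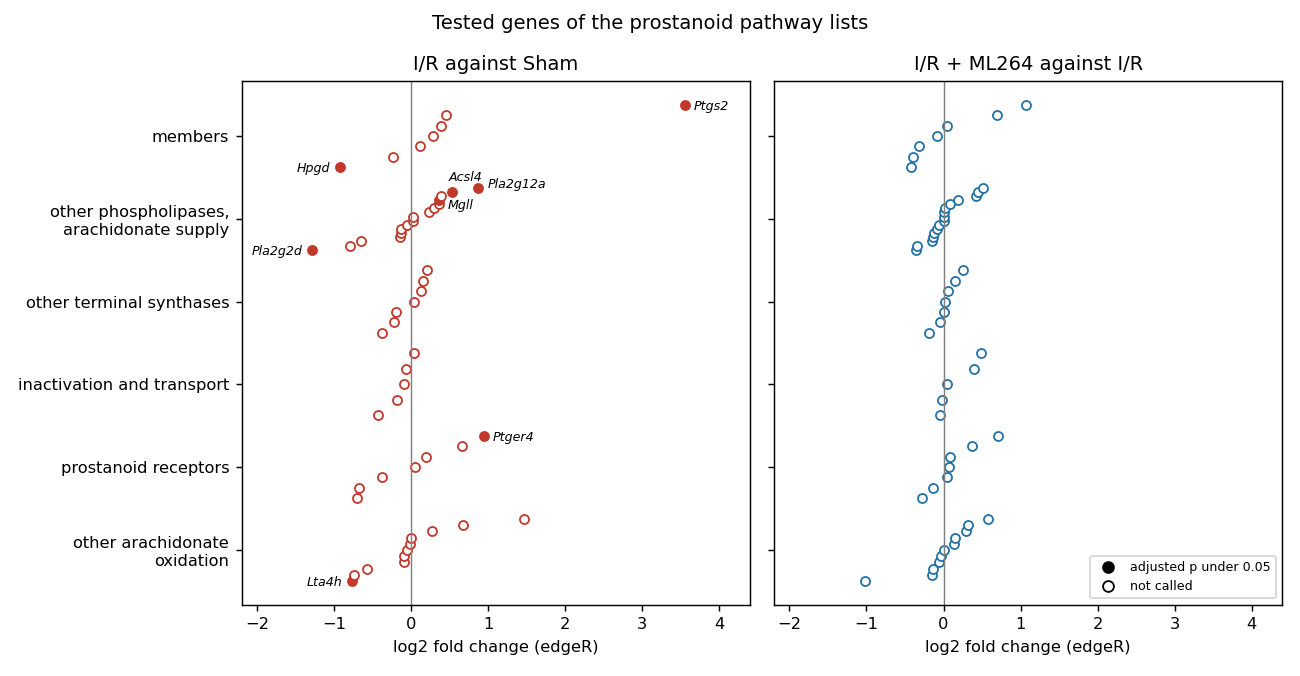
Log2 fold change of each tested gene (1 point per gene) in the 7 members and the 5 other pathway lists, for I/R against Sham (left) and I/R + ML264 against I/R (right), with filled points where the edgeR adjusted p was under 0.05. In I/R against Sham 5 genes are filled on the positive side and 3 on the negative side, with Ptgs2 farthest out at 3.55, and in the other panel no point is filled.

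The members did not follow a common course over the 12 libraries. Pearson correlations of log2 CPM over the 21 pairs of members were -0.51 (Ptgs2 with Hpgd) to 0.63 (Ptgs2 with Ptgis), a description over libraries that share the group structure. Among 10602 other genes, those most like Ptgs2 were Plk3, a stress-responsive kinase (r = 0.98), Slc25a25, a mitochondrial ATP-Mg carrier (0.98), and Fos, the AP-1 transcription factor (0.97). In Sham libraries 1 to 4 Fos was at 13.0, 0.0724, 0.556 and 2.57 CPM, with the highest and lowest values in the same libraries as for Ptgs2, and in I/R libraries 1 to 4 at 7.65, 60.0, 43.4 and 93.0 CPM. Plk3 rose by 1.60 ± 0.31 and Slc25a25 by 1.71 ± 0.39 (SE, adjusted p = 0.00667 and 0.0256), and Fos had 3.72 ± 1.12 (adjusted p = 0.0806).

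**Figure D4:**
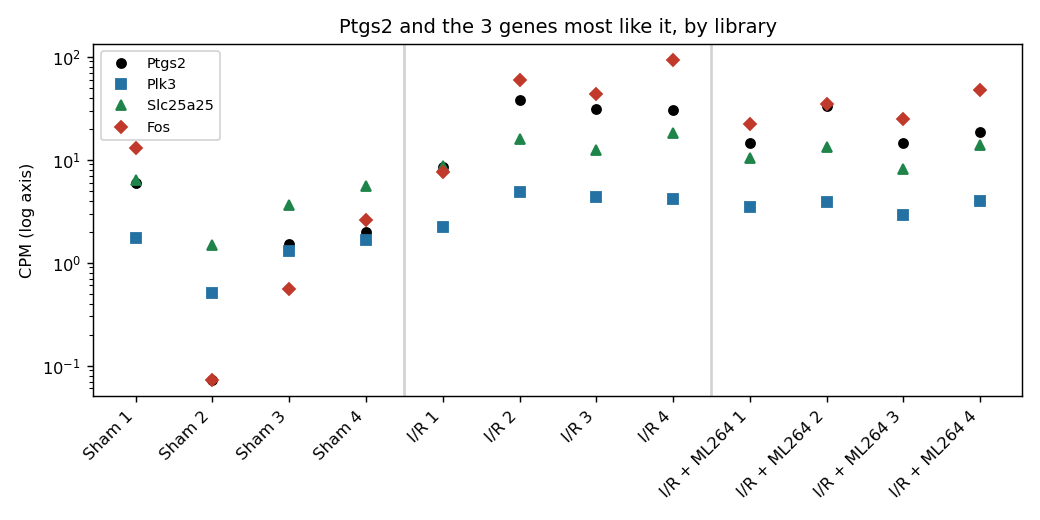
CPM of Ptgs2 and of the 3 genes with the highest correlation to it, Plk3, Slc25a25 and Fos, in each of the 12 libraries on a log axis. All 4 are lowest in Sham library 2, and I/R library 1 lies below the other I/R libraries in each.

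For Hpgd the most similar genes were Gna11 (r = 0.95), Cyb5r2 (0.93) and Ptch1, the hedgehog receptor (0.93), of which Ptch1 fell in I/R (-0.52 ± 0.12, SE, adjusted p = 0.0167). For Ptgds they were Lsp1 (0.88), Olfr173 (0.87) and Clip4 (0.86), each highest in I/R + ML264 library 2. For Ptgs1 they were Ssr4 (0.95), Dnajb1 (0.89) and S100a11 (0.87), and for Ptges Ahi1 (0.91), Irf1 (0.89) and Cct7 (0.88). For Ptgis they were Mapkbp1 (0.88), Clcn5 (0.85) and Xiap (0.85), and for Pla2g4a Cndp2 (0.86), Hepacam2 (0.86) and Adrm1 (0.82).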

How the data were processed

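Mouse heart RNA from 12 libraries in 3 groups of 4 was analysed. Per the labels' protocols, libraries were made with a Nextera XT kit and read as 100 bp pairs. The authors deposited estimated counts per transcript, not normalized and not pooled. The tools named are FastQC and kallisto and the build GRCm38 (mm10), per the submitters' processing notes; the sources used here do not give their versions or the annotation release. All transcripts of a symbol were added up, then rounded. Rows of single transcripts were not read as isoforms (see the closing observations). Genes were kept with filterByExpr (minimum 10 counts), which left 15952. One edgeR 4.0.16 quasi-likelihood model (R 4.3.3, TMM factors, robust spread, coefficient of variation 0.205) over all 12 libraries gave the 3 comparisons, with Benjamini-Hochberg adjustment over all genes tested. The standard error is the log2 fold change divided by the root of the F statistic, and 95% intervals assume a normal error. The code was tested on simulated data. The members, lists, rule and alternatives were chosen with earlier results of these data known. The rule named all members, called genes of the pathway lists, receptors, terminal synthases and the 3 genes most like each member (average log2 CPM of at least 1, predicted genes left out). Alox5, Alox12, Slco2a1, Adgre1, S100a8 and the single mast cell markers were named after their values were seen. The values of 1 receptor are not reported here. Zero counts allow up to 3 counts per library. Annotation was GENCODE M21, with 94.7% of the transcripts at the same version. Start regions were RefSeq's. Alternatives were DESeq2 1.42.0, limma 3.58.1 voom with library weights, other factors and filters, a non-robust spread, only the groups compared, the replicate block, mitochondrial genes left out, Y-linked or Arntl covariates and each library left out. Fits within levels of Y-linked transcripts were added after the data were seen.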

Additional observations from a re-analysis of the deposited data

How the results depend on the processing

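Of 532 values of the 7 genes under alternatives, 493 kept their direction and side of the threshold, 22 lost and 3 gained a call, and 14 changed direction. Nearly all of the 493 were values not called in the main fit. All 22 losses were of the only 2 calls, Ptgs2 and Hpgd in I/R against Sham. Ptgs2 kept its call in 7 of 12 fits without 1 library and in 8 of 13 other alternatives. Hpgd kept its call in 5 of 12 and 8 of 13. In I/R against Sham, 2 members were called, 1 with voom or with only the 2 groups compared, 0 with the replicate block, with a covariate for Y-linked transcripts or for Arntl or in the libraries with high Y-linked transcripts, and 0 to 2 without 1 library. With the replicate block the adjusted p was 0.112 for Ptgs2 and 0.0654 for Hpgd, and for Acsl4 0.0578; with the Y-linked covariate it was 0.0736 and 0.167. Over all genes the count was 1235, or 446 with the Y-linked covariate, 637 with Arntl, 553 in the libraries with high Y-linked transcripts and 659 to 1485 without 1 library. With upper-quartile factors 620 were higher and 676 lower, against 730 and 505.

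In I/R + ML264 against I/R, 0 members were called, or 1 by DESeq2, and 0 without any 1 library. Over all genes the count was 8, or 26 with no filter, 144 by DESeq2, 2 with a non-robust spread, 1 with the replicate block, 2 and 4 in the libraries with high and low Y-linked transcripts, and 0 to 85 without 1 library, the highest without I/R + ML264 library 2. In I/R + ML264 against Sham, 0 members were called, or 2 by DESeq2. Over all genes the count was 46, or 77 with no filter, 354 by DESeq2, 27 with voom, 72 with a non-robust spread, 27 with only the 2 groups compared, 19 with the replicate block, 15 with the Y-linked covariate, 12 with Arntl, 27 in the libraries with high Y-linked transcripts and 9 to 101 without 1 library.

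Changes of direction were of values that were not called. Ptgs1 in I/R against Sham was -0.07 with Arntl. In I/R + ML264 against I/R, in the libraries with low Y-linked transcripts, Pla2g4a was 0.12, Ptgs2 0.30 and Ptgis -0.10, and Ptgis was -0.07 to 0.31 without 1 library. In I/R + ML264 against Sham, in the libraries with high Y-linked transcripts, Pla2g4a was -0.08 and Ptges -0.03. Without 1 library, Pla2g4a was -0.02 to 0.20 in I/R against Sham and -0.10 to 0.10 in I/R + ML264 against Sham, where it was negative without Sham library 4 or I/R + ML264 library 2 (-0.07), and Ptges was -0.01 to 0.25. The causes were not tested. The labels do not say that replicate numbers pair animals, and over 12 same-numbered pairs the correlation of deviations from the group mean was -0.11 to 0.09. Depth limits Ptger2, Ptger3, Ptgdr2 and Klf5, which did not pass the filter.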

Other observations

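The EP3 receptor Ptger3 fell below the count filter. Its counts over all 4 libraries of a group were 1 for Sham, 2 for I/R and 20 for I/R + ML264, where single libraries held 2, 6, 6 and 6. With so few counts it was not tested, and no fold is given. Alox12, the 12-lipoxygenase known from platelets and named after its values were seen, was at 3.91 ± 1.35 CPM for Sham, 10.7 ± 14.2 for I/R and 5.38 ± 5.15 for treated hearts (SD, n = 4), with the 2 highest sums of platelet markers in I/R library 4 (216 CPM) and I/R + ML264 library 4 (155 CPM).

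The rows of single transcripts in the deposited table did not keep their order between libraries. All counts of Ptges stood on 1 of its 4 transcripts in each library, and not on the same one throughout: in Sham, 41.4 on one in library 1, 92.0 and 79.0 on another in libraries 2 and 4, and 77.0 on yet another in library 3. The counts of Ptgs2 lay almost wholly on one of its 2 transcripts in I/R libraries 1 and 4 (232 and 818) and on the other in I/R libraries 2 and 3 (969.2 and 767.3). Over all genes with 2 transcripts, at least 50 counts in each library and over 90% of them on 1 transcript in each library, 0 of 515 had the same leading transcript in all 12 libraries. The transcript listed first led in a median of 6 libraries. Sums per gene do not depend on how counts are placed within a gene, and no transcript-level value is used here.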
